A study of Glycine max with 36 samples.

Results

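Phytochromes are the red and far-red light receptors of plants. Each carries a bilin chromophore and switches between an inactive, red-absorbing form and an active, far-red-absorbing form. Phytochrome B is light stable and, in Arabidopsis, is the main receptor for red light in green leaves, where it restrains stem elongation and passes light signals to the circadian clock. Phytochrome E belongs to the same branch of the family and, in Arabidopsis, pairs with phytochrome B and shares in the response to shade.

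The genes described are the soybean PHYB identifiers GLYMA09G03990 and GLYMA15G14980 and the PHYE identifiers GLYMA09G11600 and GLYMA15G23400. They were chosen by gene identity, not by their values, and the 4 identifiers were looked up among the 47011 of the table. Rows were found for 3 of them, and all 3 had a mean of at least 1 FPKM (fragments scaled by gene length and by the mapped total), the limit that 27449 genes passed for testing. GLYMA15G23400 had no row and was not analysed here. The names PHYB and PHYE came with the choice of these identifiers. The RefSeq table of gene names (assembly Glycine_max_v4.0) lists 1 gene named PHYB, on chromosome 9, and genes named PHYE1 on chromosome 9 and PHYE2 on chromosome 15. None of the table's identifiers (0) occurs in it, so it pairs no name with an identifier. GLYMA09G03990 and GLYMA09G11600 carry chromosome 9 in their identifiers and GLYMA15G14980 carries chromosome 15. They are called the chromosome 9 PHYB copy, the chromosome 15 PHYB copy and the chromosome 9 PHYE gene.

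RNA was taken from unifoliolate leaves, the first simple leaf pair of the soybean seedling, of the cultivar Williams 82 with no genetic change or applied agent. All seedlings grew for 9 days at 28 °C in 16 h light and 8 h dark, then went into constant conditions, and harvest began at an age of 11 days. Harvests were 4 h apart from ZT0 to ZT44 (zeitgeber time in h), with 3 biological replicates at each of 12 time points and leaves of 3 seedlings pooled in each replicate. The labels do not say at what light level the constant phase was held. The leaf label could not be checked against marker genes, because the identifiers are not paired with names.

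The 36 libraries summed to 651475 to 749531 FPKM, which is not a sequencing depth, and the depth is unknown. Pearson's r between replicates across genes ran from 0.947 to 0.9943. Replicate 2 of ZT40 and replicates 2 and 3 of ZT44 lay away from the rest on principal component 4 (3.33% of the variance), with scores of 34 or more against at most 17.5 in the other 33. They are called the libraries that stood apart, and results that rest on them are given with and without them. The other replicates of ZT40 and ZT44 had the lowest scores of all libraries on this component. These were -24.8 and -21.6 in ZT40 replicates 1 and 3 and -17.4 in ZT44 replicate 1. Replicates of these time points thus split to both ends of the component. The median tested gene rose from 2.55 ± 0.03 at ZT0 to 3.00 ± 0.04 at ZT16 (log2(FPKM + 1), SD, n = 3), so levels are given both as deposited and on a scale relative to the median gene, after dividing each library by its median ratio to the gene-wise geometric means. In leaf RNA, fewer cells of a type and less RNA per cell cannot be told apart.

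The chromosome 9 PHYB copy had the highest mean level of the 3 genes, 7.33 FPKM over 36 libraries, which exceeded the mean of 56% of the tested genes. The chromosome 15 PHYB copy followed with 5.37 FPKM (above 45.4% of tested genes), and the PHYE gene with 2.35 FPKM (above 19.2%). This order held in 31 of 36 libraries, and in the other 5 the chromosome 15 PHYB copy was above the chromosome 9 copy. The ranges of the PHYB copies overlapped at 4 of the 12 time points, ZT4, ZT28, ZT32 and ZT44. Those of the chromosome 15 PHYB copy and the PHYE gene overlapped at ZT40 and ZT44, 2 of 12, and those of the chromosome 9 PHYB copy and the PHYE gene at 0 of 12. The PHYB copies are close relatives, and how reads matching both were counted is not given in the sources used here, so their separate levels are uncertain to that degree.

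The chromosome 9 PHYB copy was low from subjective dawn to midday and high around subjective dusk. Its 3 replicates had 5.95, 6.14 and 6.06 FPKM at ZT0, 6.39, 5.91 and 5.37 at ZT4, and 6.04, 6.97 and 6.67 at ZT8. They had 10.5, 8.64 and 8.78 FPKM at ZT12, 9.91, 8.16 and 9.50 at ZT16, and 6.90, 6.42 and 7.37 at ZT20. On the first day every library of ZT12 and ZT16 was therefore above every library of the other 4 times. On the second day the values were 6.38, 6.06 and 6.10 FPKM at ZT24, 6.33, 5.81 and 5.85 at ZT28, and 6.15, 6.70 and 6.78 at ZT32. They were 10.1, 10.8 and 7.83 FPKM at ZT36, 11.6, 6.91 and 9.91 at ZT40, and 8.31, 5.0 and 5.43 at ZT44. The high and low times of the second day overlapped, since ZT40 replicate 2 was low and ZT44 replicate 1 was high.

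The chromosome 15 PHYB copy had a shallower course with its high values between subjective morning and midday. Its replicates had 5.20, 5.07 and 5.84 FPKM at ZT0, 6.30, 6.43 and 5.87 at ZT4, and 5.48, 5.73 and 5.61 at ZT8. They had 5.45, 4.36 and 4.99 FPKM at ZT12, 5.21, 4.70 and 5.30 at ZT16, and 5.32, 5.29 and 5.29 at ZT20. Every library of ZT4 was above every other library of the first day, though the nearest, ZT0 replicate 3, was only just below them. On the second day the values were 5.0, 5.40 and 4.55 FPKM at ZT24, 6.34, 6.30 and 5.79 at ZT28, and 5.78, 5.69 and 7.24 at ZT32. They were 5.75, 6.25 and 4.96 FPKM at ZT36, 5.90, 3.72 and 4.70 at ZT40, and 5.45, 3.35 and 3.61 at ZT44. The highest value of the second day was at ZT28, the match of ZT4, in replicates 1 and 2 and at ZT32, the match of ZT8, in replicate 3, and the lowest values were in the libraries that stood apart.

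The PHYE gene had the widest relative swing, with low values at subjective midday and high values in the subjective night. Its replicates had 2.54, 2.71 and 2.59 FPKM at ZT0, 1.59, 1.48 and 1.62 at ZT4, and 1.25, 1.22 and 1.22 at ZT8. They had 2.69, 2.02 and 2.35 FPKM at ZT12, 3.86, 3.34 and 3.92 at ZT16, and 3.22, 3.15 and 3.11 at ZT20. The libraries of ZT8 were below, and those of ZT16 above, all other libraries of the first day. On the second day the values were 2.54, 2.33 and 2.02 FPKM at ZT24, 1.60, 1.53 and 1.73 at ZT28, and 1.38, 1.58 and 1.21 at ZT32. They were 2.01, 2.43 and 2.20 FPKM at ZT36, 3.67, 1.99 and 4.40 at ZT40, and 3.95, 1.87 and 2.17 at ZT44. The night values of the second day fell into separate levels, with the libraries that stood apart at or below 2.17 FPKM and the others of ZT40 and ZT44 at or above 3.67 FPKM.

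**Figure D1:**
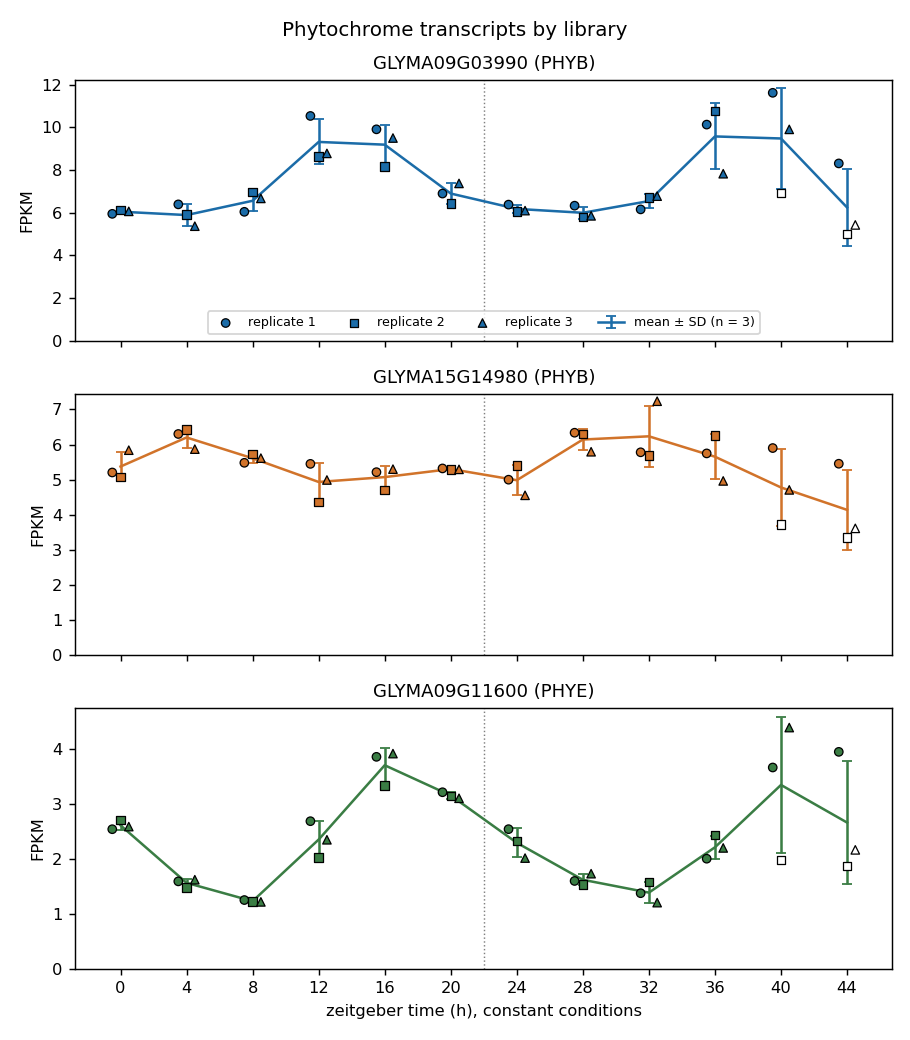
FPKM of the 3 phytochrome genes (y axis) at each zeitgeber time in h (x axis), with 1 symbol per library by replicate, white for the 3 libraries that stood apart, and lines for the mean ± SD (n = 3). The dotted line parts the first from the second 24 h; the chromosome 9 PHYB copy was highest near ZT12 and ZT36 and the PHYE gene at ZT16 and ZT40.

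All 3 genes changed over the 12 time points as deposited, as did 95.1% of all tested genes (limma moderated F-test, Benjamini-Hochberg adjusted p under 0.05 over all tested genes). The adjusted p was 6.29e-07 for the PHYE gene, 2.14e-05 for the chromosome 9 PHYB copy and 0.00741 for the chromosome 15 PHYB copy. The time point means of the PHYE gene spanned 3.01-fold, from 1.23 ± 0.02 FPKM at ZT8 to 3.71 ± 0.32 at ZT16 (SD, n = 3). Those of the chromosome 9 PHYB copy spanned 1.63-fold, from 5.89 ± 0.51 FPKM at ZT4 to 9.58 ± 1.55 at ZT36. Those of the chromosome 15 PHYB copy spanned 1.51-fold, from 4.13 ± 1.15 FPKM at ZT44 to 6.23 ± 0.87 at ZT32. The last call was lost without replicate 2 (adjusted p = 0.201) and without replicate 3 (adjusted p = 0.211) in limma's test, and without the 3 libraries that stood apart the span of this gene on the log2 scale was 0.28 against 0.51. Relative to the median gene 2 of the 3 changed, against 88% of all tested genes: the chromosome 15 PHYB copy (adjusted p = 1.35e-08) and the PHYE gene (5.93e-07), while the chromosome 9 PHYB copy had an adjusted p of 0.109.

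A 24-h rhythm was called for all 3 genes as deposited, with 94.4% of all tested genes called (limma F-test of 24-h cosine and sine terms, adjusted p under 0.05). The PHYE gene peaked at ZT18.2 ± 0.41 h (SE) with an amplitude, the distance from middle to peak, of 0.44 ± 0.05 on the log2(FPKM + 1) scale (adjusted p = 4.26e-10). Its fitted peak-to-trough ratio was 1.84-fold on this scale, which understates a gene this low. The chromosome 9 PHYB copy peaked at ZT14.0 ± 0.50 h with an amplitude of 0.32 ± 0.04 (1.56-fold, adjusted p = 4.14e-08). The chromosome 15 PHYB copy peaked at ZT6.2 ± 0.86 h with an amplitude of 0.17 ± 0.04 (1.26-fold, adjusted p = 0.000437). Larger amplitudes than these were found in 37.3%, 57.8% and 89.2% of the tested genes, respectively, and the median tested gene had 0.358. Without the 3 libraries that stood apart the amplitudes were 0.53, 0.35 and 0.10, and all 3 calls held (limma adjusted p of 7.62e-16, 1.14e-11 and 0.00795). In that fit 26030 of 27442 tested genes were called.

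Same-numbered libraries were also fitted alone as 3 replicate courses. They shared a number only, so each course is a grouping by label and not the same plants followed over time. Each course placed the peaks in the same order. The PHYE gene peaked at ZT18.3, ZT18.5 and ZT17.7 in replicates 1, 2 and 3. The chromosome 9 PHYB copy peaked at ZT14.9, ZT12.3 and ZT14.3, and the chromosome 15 PHYB copy at ZT7.2, ZT5.6 and ZT6.6. The amplitudes of the chromosome 15 copy in these courses were 0.07, 0.25 and 0.19 (log2). Its peak in the nearly flat replicate 1 course is therefore poorly placed. The best-fitting period between 18 and 32 h was 22.8 h for the chromosome 9 PHYB copy, with 24.4, 21.6 and 22.6 h in the replicate courses. It was 26.4 h for the chromosome 15 copy, with 27.9, 26.4 and 27.9 h. For the PHYE gene it was 22.9 h, with 24.5, 21.0 and 22.3 h. Periods of single courses of the same gene thus lay up to several hours apart, and samples 4 h apart over 44 h do not resolve them further.

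Relative to the median gene the PHYB copies changed places in rhythm amplitude. The order of their levels within a library stayed the same, since both are divided by the same factor. The chromosome 9 copy stayed between 6.56 ± 0.38 FPKM at ZT32 and 8.19 ± 1.13 at ZT36 in rescaled units at 11 of the 12 time points, with 5.75 ± 1.37 at ZT44 (SD, n = 3). Its amplitude was 0.07 ± 0.04 (SE, log2), and a rhythm was not called (limma adjusted p = 0.23). The chromosome 15 copy went from 7.43 ± 0.37 FPKM at ZT4 to 4.03 ± 0.32 at ZT12, and from 7.01 ± 0.38 at ZT28 to 3.82 ± 0.84 at ZT40. Its amplitude was 0.37 ± 0.04, with a peak at ZT3.9 ± 0.38 h and an adjusted p of 1.12e-10. The PHYE gene went from 1.29 ± 0.03 FPKM at ZT8 to 3.19 ± 0.10 at ZT20 (SD, n = 3). Its amplitude was 0.37 ± 0.04 (SE, log2), with a peak at ZT20.0 ± 0.43 h and a limma adjusted p of 3.07e-09. The amplitudes of these genes were not tested against each other. A rhythm was thus called for 2 of the 3 genes on this scale, against 86.3% of all tested genes.

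Larger rescaled amplitudes than that of the chromosome 9 PHYB copy were found in 92.9% of the tested genes, and in 34.6% and 34.7% for the chromosome 15 copy and the PHYE gene. Without the 3 libraries that stood apart, the rescaled amplitude of the chromosome 9 copy was 0.09 ± 0.03 and passed the test (adjusted p = 0.0183). Those of the chromosome 15 copy and the PHYE gene were then 0.33 ± 0.03 and 0.45 ± 0.02. A rhythm was called for 23686 of 27442 tested genes in that fit.

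**Figure D2:**
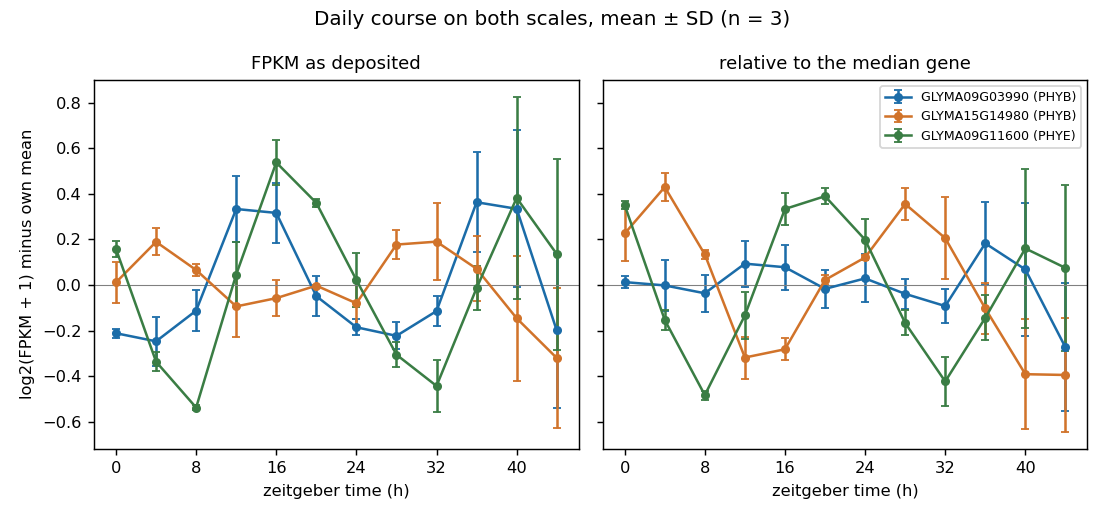
Mean ± SD (n = 3) of log2(FPKM + 1) minus each gene's own mean over the 36 libraries (y axis) against zeitgeber time in h (x axis), as deposited on the left and relative to the median gene on the right. The evening rise of the chromosome 9 PHYB copy is seen on the left and the fall of the chromosome 15 copy from ZT4 to ZT12 on the right; the PHYE gene swings on both.

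**Figure D3:**
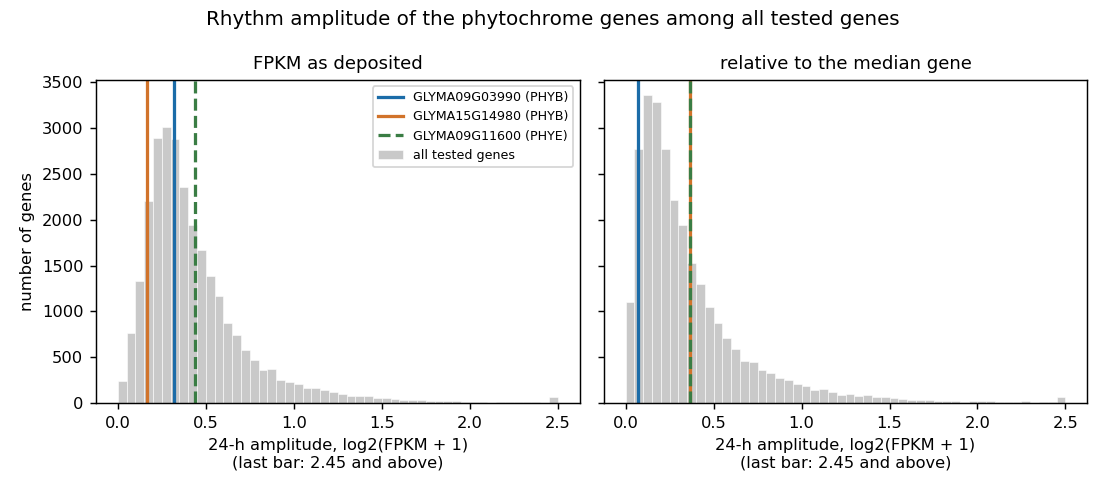
Number of genes (y axis) by 24-h amplitude on the log2(FPKM + 1) scale (x axis) for the 27449 tested genes, as deposited on the left and relative to the median gene on the right, with coloured lines for the 3 phytochrome genes. The lines stand at 0.32, 0.17 and 0.44 on the left and at 0.07, 0.37 and 0.37 on the right for the chromosome 9 PHYB copy, the chromosome 15 copy and the PHYE gene.

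Differences between genes within a library do not depend on how libraries are scaled, apart from the effect of the added 1 FPKM. The 3 genes give 3 such pairs. For each, the mean difference was tested by a two-sided sign-flip permutation test over the 36 libraries and its 24-h rhythm by a permutation test of libraries over time points. In each of the 6 permutation tests p was 1e-05 (36 libraries), and 1e-05 after adjustment over the 3 pairs. That is the smallest p that 100000 resamples can give. The sign-flip test treated the libraries as separate units, although replicates of a time point share that time point's difference. Its p can therefore overstate the evidence for a mean difference over time points. This applies most to the PHYB copies, whose mean difference was negative at ZT4 and ZT28 and positive at the other time points. The added 1 FPKM shrinks the log2 differences that involve the low PHYE gene. With 0.1 FPKM added instead, the chromosome 9 PHYB copy minus the PHYE gene averaged 1.655 against 1.333. The amplitude of that difference was then 0.555 against 0.407.

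Against the chromosome 15 copy, the chromosome 9 PHYB copy rose and fell once a day. The ratio of their FPKM was 1.13 ± 0.09 at ZT0, 0.949 ± 0.056 at ZT4 and 1.17 ± 0.06 at ZT8 (SD, n = 3). It was 1.89 ± 0.12 at ZT12, 1.81 ± 0.08 at ZT16 and 1.30 ± 0.09 at ZT20. On the second day it was 1.25 ± 0.11, 0.977 ± 0.048, 1.06 ± 0.12, 1.69 ± 0.10, 1.98 ± 0.12 and 1.51 ± 0.02 from ZT24 to ZT44. The copies were thus about equal in the morning of both days, and the chromosome 9 copy was well above the other around dusk. As a share of the summed PHYB FPKM, the chromosome 9 copy went from 48.7% ± 1.46 at ZT4 to 65.4% ± 1.42 at ZT12, and from 49.4% ± 1.24 at ZT28 to 66.4% ± 1.39 at ZT40.

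On the log2(FPKM + 1) scale the difference between the PHYB copies averaged 0.37, positive in 31 of 36 libraries, with an amplitude of 0.42 ± 0.03 (SE) and a peak at ZT15.4 ± 0.28 h. The 3 libraries that stood apart lay close to their replicates in this difference: it was 0.75 in ZT40 replicate 2 against 0.87 and 0.93 in replicates 1 and 3, and 0.47 and 0.48 in ZT44 replicates 2 and 3 against 0.53 in replicate 1. The amplitude without them was 0.43 ± 0.03. Over the 12 time point means, the levels of the copies had a Pearson's r of -0.26 on the deposited scale and -0.06 after rescaling, given as a description of points from the same libraries.

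The difference between the PHYE gene and each PHYB copy also rose and fell over the day. Over the 12 time point means, the level of the PHYE gene had a Pearson's r of 0.51 with that of the chromosome 9 PHYB copy on the deposited scale and 0.12 after rescaling. With the chromosome 15 copy the same r was -0.65 and -0.31, again as a description of points from the same libraries. The FPKM ratio of the chromosome 9 PHYB copy to the PHYE gene was 2.31 ± 0.04 at ZT0, 5.33 ± 0.45 at ZT8 and 2.19 ± 0.17 at ZT20 (SD, n = 3). It was 4.78 ± 0.74 at ZT32 and 2.43 ± 0.29 at ZT44. The difference averaged 1.33 on the log2(FPKM + 1) scale, positive in 36 of 36 libraries, with an amplitude of 0.41 ± 0.03 (SE) and a peak at ZT9.1 ± 0.28 h.

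Among the 3 pairs, the chromosome 15 PHYB copy and the PHYE gene had the largest amplitude. Their FPKM ratio was 4.55 ± 0.16 at ZT8 and 1.37 ± 0.03 at ZT16, and 4.60 ± 1.25 at ZT32 and 1.52 ± 0.41 at ZT40 (SD, n = 3). The difference averaged 0.96 on the log2(FPKM + 1) scale, positive in 36 of 36 libraries, with an amplitude of 0.60 ± 0.04 (SE) and a peak at ZT6.2 ± 0.24 h. ZT32 replicate 3 had the highest difference of all libraries, 1.90, and ZT40 replicate 3 the lowest, 0.08.

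**Figure D4:**
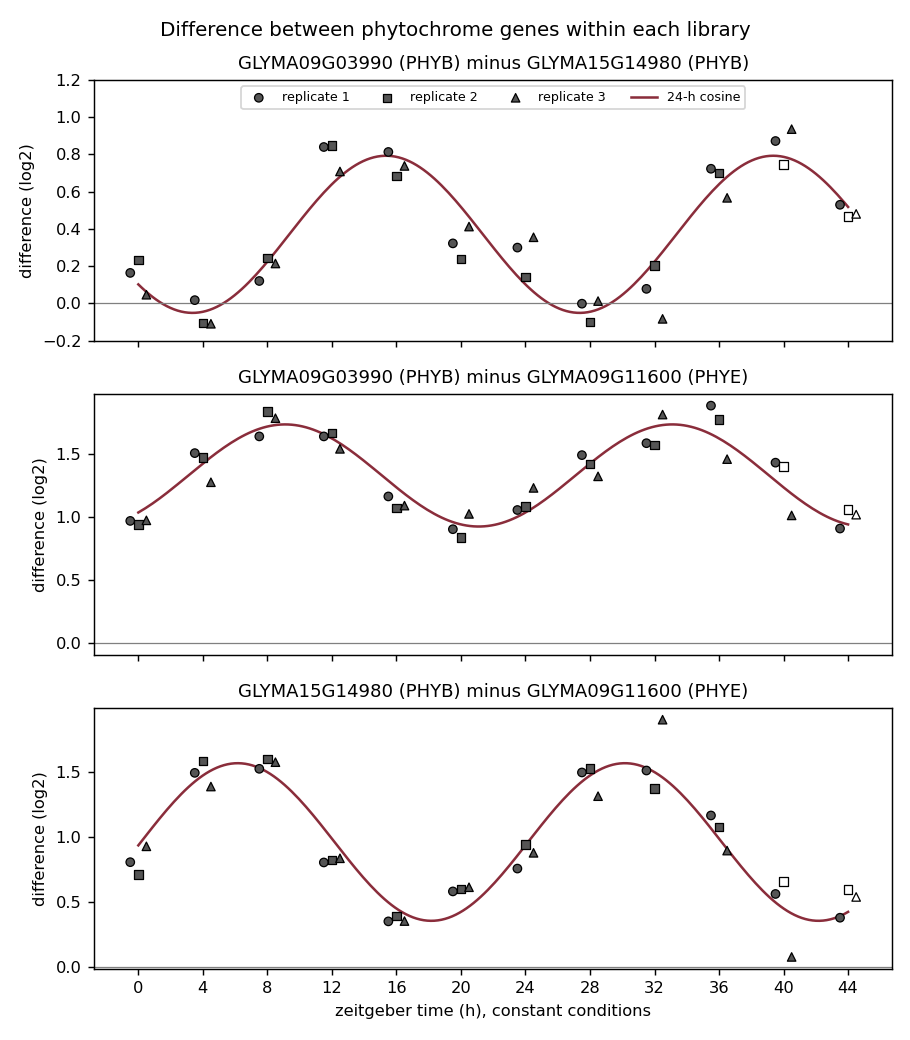
Difference in log2(FPKM + 1) between 2 phytochrome genes within each library (y axis) against zeitgeber time in h (x axis), with 1 symbol per library by replicate, white for the 3 libraries that stood apart, and the fitted 24-h cosine as a line. The fitted peaks are at ZT15.4, ZT9.1 and ZT6.2 from top to bottom.

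The timing of the moves was examined in the 11 steps between neighbouring time points (limma moderated test, adjusted over all tested genes within a step). As deposited, the chromosome 9 PHYB copy rose from ZT8 to ZT12 by 0.45 ± 0.14 (log2, SE, adjusted p = 0.00736) and from ZT32 to ZT36 by 0.48 ± 0.14 (0.0063). It fell by 0.37 ± 0.14 from ZT16 to ZT20 (limma adjusted p = 0.0246) and fell by 0.53 ± 0.14 from ZT40 to ZT44 (0.00295). The last of these differences was -0.33 without the 3 libraries that stood apart, with an adjusted p of 0.0918. The PHYE gene fell by 0.49 ± 0.15 from ZT0 to ZT4 (limma adjusted p = 0.0132). It rose from ZT8 to ZT12 by 0.58 ± 0.15 (0.00222), from ZT12 to ZT16 by 0.49 ± 0.15 (0.0172) and from ZT32 to ZT36 by 0.43 ± 0.15 (0.0262). From ZT36 to ZT40 its difference was 0.40 ± 0.15 (limma adjusted p = 0.0581), and 0.65 without the 3 libraries that stood apart (adjusted p = 7.49e-06).

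In all, 8 of the 33 steps of the 3 genes passed: 4 of 11 for the chromosome 9 PHYB copy, 4 for the PHYE gene and 0 for the chromosome 15 copy, for which 1 step, ZT24 to ZT28, had an unadjusted p under 0.05 in limma's test. The shares of all tested genes that passed, from the step ZT0 to ZT4 onward, were 32.6%, 36.8%, 57.2%, 24.6%, 57.1%, 24.6%, 30.3%, 26.7%, 40.7%, 25.4% and 40%. The rises of the chromosome 9 PHYB copy and the PHYE gene from ZT8 to ZT12 fell in the step with the highest share. Without replicate 1, 2 of the 33 steps passed, and without replicate 3 it was 3. Without replicate 2 the count was 3 of 11 for the chromosome 9 PHYB copy, 5 for the PHYE gene and 0 for the chromosome 15 copy. These fits had 24 libraries each, and the shares of all tested genes were not computed for their steps. Without the 3 libraries that stood apart the count was 3 of 11 for the chromosome 9 PHYB copy and 7 for the PHYE gene. For the chromosome 15 copy it was then 1, ZT24 to ZT28, whose difference was 0.26 (log2) with and without those libraries. ZT44 had replicate 1 alone in that fit, and shares of all tested genes were not computed for its steps either.

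Relative to the median gene 9 of the 33 steps passed in limma's test. The chromosome 15 PHYB copy fell by 0.30 ± 0.11 from ZT4 to ZT8 (adjusted p = 0.0348), fell by 0.45 ± 0.11 from ZT8 to ZT12 (0.00132) and fell by 0.31 ± 0.11 from ZT32 to ZT36 (0.0285), and it rose from ZT16 to ZT20 by 0.30 ± 0.11 (0.0232). The PHYE gene kept its fall from ZT0 to ZT4 (-0.50 ± 0.13) and its rises from ZT8 to ZT12 (0.35 ± 0.13) and from ZT12 to ZT16 (0.47 ± 0.13), and it also fell by 0.37 ± 0.13 from ZT24 to ZT28. Its difference from ZT32 to ZT36 was 0.28 ± 0.13 on this scale and no longer passed (limma adjusted p = 0.11). The chromosome 9 PHYB copy passed in 1 step, ZT40 to ZT44, where it fell by 0.34 ± 0.12 (adjusted p = 0.0337). That difference was -0.16 without the 3 libraries that stood apart, with an adjusted p of 0.512. On this scale 35.5%, 29.7%, 31%, 23.9%, 38.5%, 14.3%, 33.3%, 18.8%, 28.1%, 20.7% and 25.5% of all tested genes passed in the 11 steps in order.

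Levels of the 3 genes were compared between day 1, ZT0 to ZT20, and day 2, ZT24 to ZT44, at matched times of day. The day term passed for 0 of the 3 genes, and 0 had an unadjusted p under 0.05, against 48.6% of all tested genes called (limma moderated test). The second 24 h minus the first was -0.01 ± 0.05 (SE, log2) for the chromosome 9 PHYB copy, -0.04 ± 0.05 for the chromosome 15 copy and -0.07 ± 0.06 for the PHYE gene, with adjusted p of 0.905, 0.603 and 0.326. Relative to the median gene these differences were -0.04, -0.07 and -0.10, again with 0 of 3 called at either p, against 48.5% of tested genes. The 3 libraries that stood apart are all from day 2, and the negative signs as deposited rested on them. Without them the differences were 0.07, 0.05 and 0.02 as deposited, in the same order of genes. Relative to the median gene they were then 0.03, 0.006 and -0.008. The age of the seedlings and the time since the light-dark cycles ended grew in parallel and cannot be told apart.

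At single times of day, 1 of 18 comparisons passed as deposited. The chromosome 15 PHYB copy was lower at ZT44 than at ZT20, with a difference of -0.32 ± 0.12 (log2, SE, limma adjusted p = 0.0441). ZT44 holds a pair of the libraries that stood apart, and with replicate 1 alone left at ZT44 the difference was 0.03 (adjusted p = 0.866, with that library assumed to vary like the others). Relative to the median gene the same comparison was -0.42 ± 0.11 (adjusted p = 0.00428), and -0.13 without those libraries (adjusted p = 0.524). The shares of all tested genes that passed from ZT24 against ZT0 to ZT44 against ZT20 were 15.4%, 14.3%, 17.7%, 24%, 26.7% and 33.5% on the deposited scale and 18.3%, 15.4%, 18.2%, 23.3%, 25.9% and 30.4% after rescaling.

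The rhythm itself was compared between the days by letting the cosine and sine terms differ between days and testing that difference. As deposited 0 of the 3 genes passed, against 15.4% of all tested genes, and 1 had an unadjusted p under 0.05 (limma F-test). That gene was the chromosome 15 PHYB copy, with amplitudes of 0.11 ± 0.05 (SE) and 0.25 ± 0.05 on the first and second day and peaks at ZT3.6 ± 1.63 and 7.2 ± 0.72 h into the day (adjusted p = 0.073). Without the 3 libraries that stood apart its amplitudes were 0.11 and 0.14, with an unadjusted p of 0.0862 and an adjusted p of 0.24 in limma's test. Its adjusted p as deposited was 0.0435 without ZT0 and 0.0371 without ZT40, and 0.0802 to 0.22 without each of the other time points in turn. Relative to the median gene it passed (adjusted p = 0.0241), 1 of 3 against 14.6% of tested genes, with amplitudes of 0.37 and 0.40 and a peak 2.37 h later on the second day. Without the 3 libraries that stood apart the rescaled shift was 1.77 h and the adjusted p 0.0858. As deposited, the chromosome 9 PHYB copy had an amplitude of 0.32 on both days (limma adjusted p = 0.894). The PHYE gene had 0.51 ± 0.07 and 0.37 ± 0.07 (0.437), and without the 3 libraries that stood apart 0.51 and 0.56.

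The genes with the most similar course were taken as the highest Pearson correlations over the 12 time point means relative to the median gene, among 27446 other tested genes. For the chromosome 9 PHYB copy these were GLYMA09G35990 (r = 0.904) and GLYMA09G35980 (r = 0.897), and 1 gene exceeded 0.9. For the chromosome 15 copy they were GLYMA07G05560 (r = 0.993) and GLYMA01G41150 (r = 0.986), with 576 genes above 0.9. For the PHYE gene they were GLYMA07G39845 (r = 0.984) and GLYMA02G05360 (r = 0.976), with 363 genes above 0.9. All points share the same libraries, and these identifiers have no name in the sources used here. The correlations used all 36 libraries and were not repeated without the 3 that stood apart. The rescaled course of the chromosome 9 PHYB copy did not pass for change over time. Its range of means was 0.456 (log2) with all libraries and 0.30 without those 3.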

How the data were processed

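The deposited values are FPKM (fragments scaled by the authors to gene length and mapped total) for 47011 identifiers in 36 columns, whose names match the sample titles. Per the submitters' processing notes, TopHat2 2.1.0 and HTSeq 0.6.0 were used, with no role stated. Genome build, annotation, FPKM software and depth were not given in the sources used here, so no counting interval is printed.

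Computed here were log2(FPKM + 1) values of the 27449 genes averaging 1 FPKM or more, fitted over all 36 libraries with limma 3.58.1 (R 4.3.3, trended prior) and adjusted over all tested genes at 0.05. Fold changes and amplitudes on this scale understate the change of low genes. The tests were time as a factor, a 24-h cosine and sine with a day term, day adjusted for time of day, the interaction of day and rhythm, and single contrasts. Differences between genes used permutation tests with 100000 resamples (NumPy 2.4.6, Python 3.11.15), planned for 6 pairs and run for 3 because 1 gene had no row. Scripts were tested on simulated data. Errors of amplitudes and peak times are delta-method standard errors. Alternatives were rescaling, a pseudocount of 0.1, no filter, libraries or time points left out, and a replicate block.

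The genes, lists and tests were chosen with earlier results of these data known. Named genes were the members, whatever their values, and the 2 identifiers most correlated with each. Phytochrome A genes and leaf markers, also planned, were left out because no source pairs identifiers with names. No sequence of these genes was used.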

Additional observations from a re-analysis of the deposited data

How the results depend on the processing

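The differences between the phytochrome genes and their rhythms kept direction and call under a pseudocount of 0.1, without each replicate and without the 3 libraries that stood apart. After median-ratio rescaling, the chromosome 9 PHYB copy lost the call for change over time (range of means 0.456, and 0.30 also without the 3 libraries). It also lost the call for rhythm (amplitude 0.068), and the chromosome 15 copy gained the interaction call (amplitude difference 0.033). Rescaled and also without the 3 libraries, the chromosome 9 copy regained the rhythm call (amplitude 0.087). The interaction of the chromosome 15 copy was then not called (amplitude difference -0.053). Rescaled peak times were 12.2, 3.92 and 20.0 h for the chromosome 9 PHYB copy, the chromosome 15 copy and the PHYE gene, and 15.8, 3.40 and 19.8 h also without the 3 libraries, a combination chosen after seeing the data. Without single replicates the range of means of the chromosome 15 copy was 0.455 to 0.730, and the peak of the same gene stayed within its replicate SD. The steps called for the 3 genes then numbered 2 to 8 (14 rescaled without the 3 libraries). For steps and single times of day, shares of all tested genes were computed only with all 36 libraries, as deposited and rescaled. The comparisons at single times of day called 0 to 1 without single replicates, 0 with no filter, 0 without the 3 libraries and 0 rescaled without them. The difference of the chromosome 15 copy between ZT44 and ZT20 turned to 0.034 without the 3 libraries. Over all tested genes the interaction count was 4214, and 515 to 1454 without single replicates. The causes of these changes were not tested.

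Same-numbered replicates shared a number only (mean correlation of deviations 0.0114 over 198 pairs, and 14 of 36 libraries closest to their own number). With a replicate block the rhythm amplitudes were 0.32, 0.17 and 0.44 with no call of the 3 genes changed, and 4049 genes passed the interaction. Without single time points all 3 rhythms as deposited passed, and the chromosome 15 copy gained the interaction call without ZT0 or ZT40.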
